A study of Mus musculus with 16 samples.

Results

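Genes of the meninges and of fibroblasts were followed through bulk RNA sequencing of mouse fetal cortex. They are 10 genes chosen by name: the collagen genes Col1a1, Col1a2 and Col3a1, the proteoglycan genes Dcn, Lum and Ogn, the transcription factor gene Foxc1, the retinoic acid genes Aldh1a2 and Crabp2, and the galectin gene Lgals1. Each gene was matched by its Ensembl ID: Col1a1 (ENSMUSG00000001506, chromosome 11), Col1a2 (ENSMUSG00000029661, chromosome 6), Col3a1 (ENSMUSG00000026043, chromosome 1), Dcn (ENSMUSG00000019929, chromosome 10), Lum (ENSMUSG00000036446, chromosome 10), Ogn (ENSMUSG00000021390, chromosome 13), Foxc1 (ENSMUSG00000050295, chromosome 13), Aldh1a2 (ENSMUSG00000013584, chromosome 9), Crabp2 (ENSMUSG00000004885, chromosome 3) and Lgals1 (ENSMUSG00000068220, chromosome 15). All 10 were found among the 55359 gene IDs of the count tables, and all 10 passed the filter on low counts that left 21543 genes for testing. Total RNA came from the cortex of fetuses at gestational day 16, and 16 libraries were made, 2 for each combination of fetal sex and parental ethanol (EtOH) exposure. There were 4 libraries (2 male, 2 female) from pregnancies in which both parents were exposed (dual), 4 from exposed mothers (maternal), 4 from exposed fathers (paternal) and 4 unexposed controls. Neither the labels nor the design text state the mouse strain, the dose and timing of ethanol, or whether the paired libraries of a sex and exposure derive from different fetuses or litters. All p-values below hence reflect library-to-library spread only, and that spread may be technical. Values are CPM (counts scaled to a common library size) scaled by TMM, a correction for library composition, unless they are stated per kilobase of exon (RPKM).

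The meninges are the connective tissue sheets around the brain. In the fetus their fibroblasts lay down fibrillar collagen and small leucine-rich proteoglycans, supply retinoic acid to the cortex beneath, and hold the surface to which radial glia attach. Cortical neurons and their progenitors make little or no fibrillar collagen, so in RNA from whole cortex these transcripts mark attached leptomeninges and the fibroblasts around vessels. In bulk RNA, fewer cells of a type and less RNA per cell cannot be told apart.

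The tissue label was checked against defining markers. Genes of cortical excitatory neurons summed to between 2834 and 3400 CPM per library and genes of radial glia to between 949 and 1311 CPM, against 90.8 to 631 CPM for the 10 meningeal genes. Other tissues were measured by whole lists: 10 genes of bone and cartilage summed to 41.2 CPM in female control 1 and 20.7 to 30.6 CPM in the other 15 libraries, 7 of skin to between 10.8 and 16.1 CPM, and 8 of skeletal muscle to between 4.03 and 7.85 CPM. Among their defining markers Sp7, a regulator of bone formation, ranged from 0.121 to 1.01 CPM, and the bone gene Bglap was at 0 in 9 of 16 libraries. The muscle gene Myod1 was at 0 in 12 libraries and the skin keratin gene Krt5 in 15.

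Depth ran from 15336566 to 35218456 counts per library, lower in males (15336566 to 19966696) than in females (26134287 to 35218456). A single library, female control 1, stood apart in the meningeal genes. Its mean log2 level over the 10 genes, each centred on its own mean, was -1.90, against -0.59 to 0.66 in the other 15 libraries. The 2 female dual libraries stood apart in composition: genes annotated as TEC (a class of unproven transcripts) or sense-intronic took 0.872% and 0.860% of their counts, against 0.280% to 0.534% in the other 14. Several results that rest on these libraries are given with and without them, mostly for the members. Most calls in the other gene lists are given with all 16 libraries only. Within males 0% of all genes passed in dual against control, maternal or paternal libraries. Leaving out 1 female control keeps 1 library as the female control group, with its spread taken from the other groups.

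Promoter windows of RefSeq (build GRCm38.p6, 250 bases before to 50 after the gene start) were at hand for 5 of the 10 genes. Windows are shown for Col1a2, whose level was tightly tied to that of Col1a1, for Foxc1, which differed between dual and paternal libraries, and for Ogn, whose profile departed from that of the other proteoglycan genes. Capitals mark CCAAT or TATAAA on either strand, with overlapping matches merged. The windows lie at chr6:4505368-4505667 (Col1a2), chr13:31806396-31806695 (Foxc1) and chr13:49607765-49608064 (Ogn), each on the plus strand.
Col1a2: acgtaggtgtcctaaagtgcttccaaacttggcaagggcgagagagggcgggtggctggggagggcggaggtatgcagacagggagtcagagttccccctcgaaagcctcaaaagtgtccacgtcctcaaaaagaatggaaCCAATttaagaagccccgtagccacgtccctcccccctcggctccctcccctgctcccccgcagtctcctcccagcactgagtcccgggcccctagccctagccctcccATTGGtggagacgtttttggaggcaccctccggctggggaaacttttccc
Foxc1: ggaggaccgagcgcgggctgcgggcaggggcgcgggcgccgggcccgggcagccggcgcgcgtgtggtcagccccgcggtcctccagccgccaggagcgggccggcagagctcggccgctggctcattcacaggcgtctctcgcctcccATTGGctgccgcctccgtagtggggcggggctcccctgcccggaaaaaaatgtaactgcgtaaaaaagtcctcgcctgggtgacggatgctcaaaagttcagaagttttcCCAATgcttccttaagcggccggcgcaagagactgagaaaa
Ogn: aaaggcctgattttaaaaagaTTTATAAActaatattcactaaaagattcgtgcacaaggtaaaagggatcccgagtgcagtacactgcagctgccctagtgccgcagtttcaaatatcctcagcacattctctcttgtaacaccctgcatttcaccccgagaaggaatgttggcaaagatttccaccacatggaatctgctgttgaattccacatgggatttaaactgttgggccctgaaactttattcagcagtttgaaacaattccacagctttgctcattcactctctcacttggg
CCAAT or its complement occurred 2 times in the Col1a2 window, 2 times in that of Foxc1 and 1 time in that of Aldh1a2, and in neither of those of Ogn and Col3a1. It was present in 37.9% of the 27025 windows of all genes. TATAAA occurred in the Ogn window, where 2 matches on opposite strands overlap, and in that of Col3a1, and in 14.2% of all windows. These matches describe letters in a window and say nothing of factor binding in this tissue.

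The 10 genes had similar profiles from library to library. Female control 1 had the lowest level of 9 of the 10 genes, the exception being Crabp2, which was lowest in male dual 1. Female dual 1 and 2 were among the lowest 3 libraries for 8 and 7 of the 10 genes, while female paternal 1 was among the highest 3 for all 10 and male maternal 1 for 9. The span between the lowest and the highest library was widest for Aldh1a2 (24.3-fold) and narrowest for Foxc1 (3.41-fold). Per length, the most abundant was Col1a1 at a mean of 14.99 RPKM over the 16 libraries, followed by Col3a1 (13.1 RPKM), Lgals1 (10.3 RPKM), Col1a2 (9.18 RPKM), Ogn (5.34 RPKM), Aldh1a2 (4.45 RPKM), Dcn (3.70 RPKM), Foxc1 (2.97 RPKM), Crabp2 (2.65 RPKM) and Lum (2.31 RPKM).

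**Figure D1:**
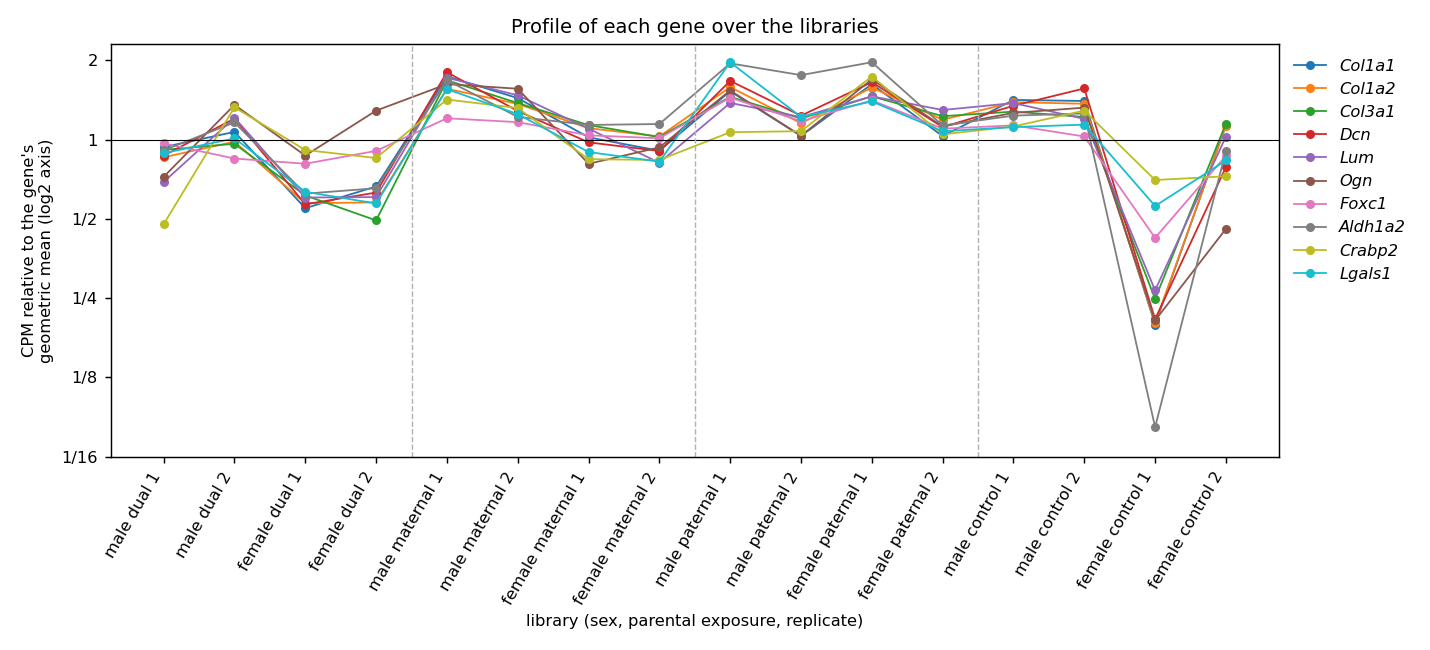
CPM of each of the 10 genes relative to its own geometric mean over the 16 libraries (log2 axis), with libraries grouped by exposure and points joined for each gene. The lines run close together, drop in female control 1 and lie under 1 for most genes in the 2 female dual libraries.

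The fibrillar collagen genes had the highest counts of the set. Col1a1, the alpha-1 chain of type I collagen, had 83.4 and 95.2 CPM in male dual and 48.9 and 59.1 CPM in female dual libraries, 155 and 128 CPM in male and 90.8 and 80.8 CPM in female maternal libraries, 136 and 91.9 CPM in male and 145 and 91.8 CPM in female paternal libraries, and 126 and 124.8 CPM in male and 17.7 and 101 CPM in female control libraries. The 4 dual libraries overlapped the maternal and paternal ones at their upper end. Of the controls, 1 library lay far under all the rest, and the others lay above every dual library. Col1a2, the alpha-2 chain of the same trimer, had 88.7, 102, 59.3 and 59.8 CPM in dual libraries (males before females here and below), 161, 141, 114 and 106 CPM in maternal, 164, 119, 163 and 123 CPM in paternal, and 143, 142, 20.8 and 117 CPM in control libraries. Every dual library was lower than every maternal and every paternal library, and 3 of the 4 controls were higher than all dual libraries. Col3a1, type III collagen of elastic and young connective tissue, had 108, 113, 72.2 and 58.1 CPM in dual, 198, 162, 134 and 120.4 CPM in maternal, 171, 142, 172 and 144 CPM in paternal, and 150.3, 143, 29.2 and 135 CPM in control libraries. Its dual libraries also lay under all 8 maternal and paternal libraries. The RPKM ratio of Col1a1 to Col1a2 stayed between 1.41 and 1.87 over the 16 libraries, a 1.33-fold range, while Col1a1 itself spanned 8.75-fold.

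The proteoglycan genes Dcn (decorin) and Lum (lumican) code for collagen-binding proteins that regulate fibril assembly. Dcn had 16.9, 23.4, 11.04 and 12.2 CPM in dual libraries, 35.0, 24.9, 19.0 and 17.6 CPM in maternal, 32.5, 24.0, 32.1 and 21.7 CPM in paternal, and 26.1, 30.4, 4.04 and 15.3 CPM in control libraries. The dual values overlapped all 3 other exposures. Lum had 3.58, 6.28, 3.13 and 3.14 CPM in dual, 8.90, 7.64, 5.71 and 4.24 CPM in maternal, 7.15, 6.31, 7.57 and 6.72 CPM in paternal, and 7.14, 6.22, 1.39 and 5.33 CPM in control libraries. All 4 dual values lay under all 4 paternal values, by a narrow margin in male dual 2. Ogn (osteoglycin, or mimecan), a further proteoglycan of the family, had 8.89, 16.7, 10.7 and 15.9 CPM in dual, 20.003, 19.2, 9.97 and 11.51 CPM in maternal, 18.9, 12.7, 20.8 and 13.8 CPM in paternal, and 15.6, 16.3, 2.53 and 5.64 CPM in control libraries. Here both female controls were the lowest of the 16, and the dual libraries were spread among the rest.

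Foxc1, a forkhead transcription factor needed for the meninges to form, varied least of the 10 genes. It had 16.2, 14.2, 13.6 and 15.2 CPM in dual libraries, 20.2, 19.6, 17.4 and 17.0 CPM in maternal, 24.3, 19.7, 23.7 and 18.5 CPM in paternal, and 19.0, 17.3, 7.12 and 14.6 CPM in control libraries. Every dual library was lower than every maternal and paternal one. Aldh1a2, the retinaldehyde dehydrogenase through which the meninges make retinoic acid, had 7.80, 9.95, 5.34 and 5.60 CPM in dual, 14.4, 10.4, 9.73 and 9.81 CPM in maternal, 16.7, 15.05, 16.8 and 9.69 CPM in paternal, and 10.6, 10.8, 0.694 and 7.76 CPM in control libraries. Female control 1 held 23 reads of it. The dual values reached into the range of the paternal ones in 1 library, male dual 2. Crabp2, which carries retinoic acid to its nuclear receptors, was the scarcest gene in CPM, with 1.60, 4.44, 3.06 and 2.85 CPM in dual, 4.76, 4.42, 2.82 and 2.80 CPM in maternal, 3.57, 3.61, 5.82 and 3.51 CPM in paternal, and 3.76, 4.32, 2.35 and 2.43 CPM in control libraries. Its groups overlapped in every comparison, and its profile was the least like those of the other members. Lgals1, a galectin of mesenchymal cells that is also made by some neurons and glia, had 7.80, 8.88, 5.57 and 5.03 CPM in dual, 13.7, 10.98, 7.88 and 7.24 CPM in maternal, 17.3, 10.7, 12.3 and 9.45 CPM in paternal, and 9.80, 10.01, 4.92 and 7.32 CPM in control libraries. All 4 dual values were lower than all 4 paternal values.

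**Figure D2:**
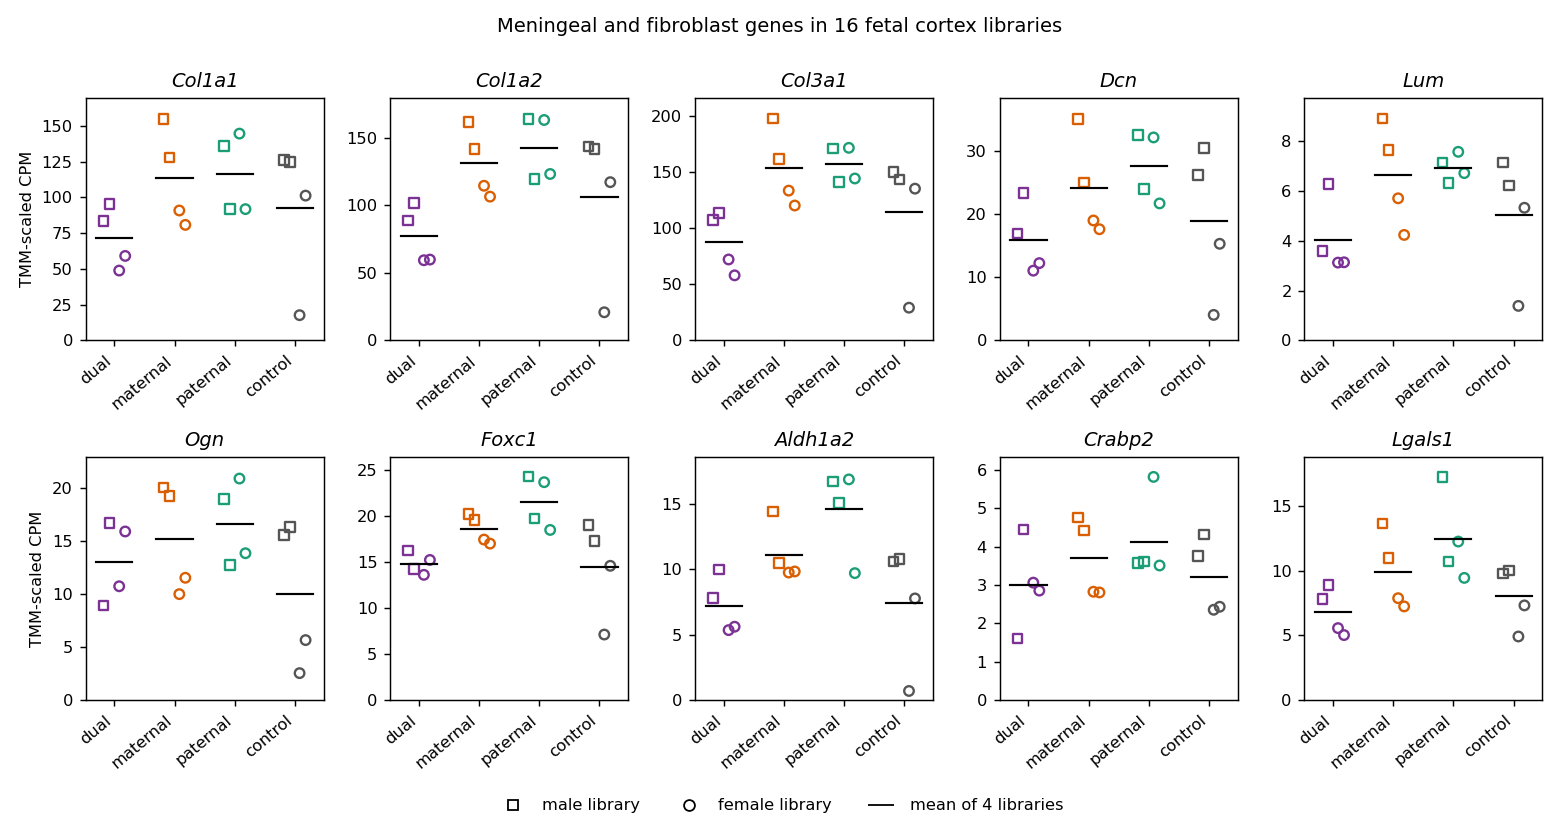
TMM-scaled CPM of each gene (vertical axis from 0, own scale per gene) in every library by exposure, with squares for male and circles for female libraries and a bar at the mean of 4 libraries. Dual libraries lie at the lower end for the collagen genes, Foxc1 and Lgals1, and 1 female control library is far under the others for most genes.

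All 10 genes averaged lower in dual than in paternal libraries. Lgals1 and Foxc1 passed the test over both sexes, and the other 8 genes pointed the same way without passing. Lgals1 averaged 6.82 ± 1.83 CPM in dual and 12.4 ± 3.43 CPM in paternal libraries (SD, n = 4 each), a log2 fold change of -0.89 ± 0.16 (SE; adjusted p = 0.0026, edgeR's quasi-likelihood test with Benjamini-Hochberg adjustment). Foxc1 averaged 14.8 ± 1.16 CPM in dual and 21.5 ± 2.87 CPM in paternal libraries, with a log2 fold change of -0.54 ± 0.16 and an adjusted p of 0.0471 by the same test. Over all genes 8.81% passed in either direction, 6.65% as higher and 2.16% as lower, against 2 of the 10 members, and DESeq2 called 3. At an unadjusted p under 0.05 there were 8 members, against 24.6% of all genes. The members' median log2 fold change was -0.84, against -0.00 for all genes tested. For 5 members, Col1a2, Col3a1, Lum, Foxc1 and Lgals1, every dual library was lower than every paternal library, as was so for 5.9% of all genes.

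The number of calls in this comparison depended on the female controls, which enter it only through the shared estimate of spread, the filter and the scaling. Without female control 1, 8 members passed as lower in dual than in paternal libraries, all but Ogn and Crabp2, while 2855 genes passed in all. Without female control 2 the same 8 passed, of 2874 genes in all. With female control 1 left out, Col1a2 stood at -0.92 (adjusted p = 2.4e-06), Col3a1 at -0.89 (adjusted p = 1.3e-06) and Aldh1a2 at -1.06 (adjusted p = 0.00011) by edgeR's quasi-likelihood test. A fit on the dual and paternal libraries alone also called 8 members, of 2601 genes in all. Lgals1 passed whichever of the 16 libraries was left out, with log2 fold changes of -1.04 to -0.70, and Foxc1 passed in 4 of those 16 fits. Within males the median was -0.49 with 0 members called by edgeR (2 at an unadjusted p under 0.05, and 0% of all genes called), and within females it was -1.16 with Col3a1, Dcn and Lgals1 called lower (2.15% of all genes). Without the 2 female dual libraries 0 members passed, with Lgals1 at -0.74 in males.

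Against maternal exposure, dual libraries were again lower for all 10 genes, with a median log2 fold change of -0.64 against 0.00 for all genes. By edgeR 0 members passed, where 5.76% of all genes did, 1.34% as lower. Without adjustment 6 members had a p under 0.05, against 21.1% of all genes, and DESeq2 called 1. Col3a1 showed the largest difference, averaging 87.9 ± 26.9 CPM in dual and 153 ± 34.3 CPM in maternal libraries, at a log2 fold change of -0.83 ± 0.27 (adjusted p = 0.0839, edgeR). For Col1a2, Col3a1 and Foxc1 every dual library was lower than every maternal one, as for 4.81% of all genes. With either female control left out, the same 8 members as in the comparison with paternal exposure passed as lower, of 1994 genes in all without the first and 2100 without the second. Those 2 comparisons share the dual libraries.

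No member passed between maternal and paternal libraries. The log2 fold changes of maternal against paternal exposure ran from -0.40 (Aldh1a2) to -0.06 (Col3a1), with a median of -0.19. By edgeR 0 members were called, as were 0% of all genes. Without adjustment 1 member had a p under 0.05, against 3.38% of all genes. This was Lgals1, at -0.35 with a 95% interval of -0.68 to -0.02, and DESeq2 called 0. The intervals are wide: that of Col1a1 ran from -0.73 to 0.58.

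Against unexposed controls, paternal libraries were higher in all 10 genes without any passing. The median log2 fold change was 0.58, against -0.01 for all genes, and edgeR called 0 members and 0% of all genes. Ogn averaged 16.6 ± 3.92 CPM in paternal and 10.01 ± 6.96 CPM in control libraries, a log2 fold change of 1.03 ± 0.23 (adjusted p = 0.32, edgeR). Aldh1a2 averaged 14.6 ± 3.35 CPM in paternal and 7.44 ± 4.70 CPM in control libraries, at 1.11 ± 0.37 (adjusted p = 0.462). Unadjusted p-values were under 0.05 for 5 members (Dcn, Ogn, Foxc1, Aldh1a2 and Lgals1) against 8.45% of all genes, and DESeq2 called 0 members. The median was -0.00 in males, with 5 genes up and 5 down, and 1.02 in females, where the controls include the low library. Without female control 1 the median over both sexes was 0.39, with Ogn at 0.80, Foxc1 at 0.40 and Aldh1a2 at 0.67. Without female control 2 instead the median was 1.28. Either fit keeps 1 female control library, so only effect sizes are given for it here.

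Maternal libraries were likewise higher than controls in all 10 genes, with a median of 0.42, and edgeR called 0 members and 0% of all genes. At an unadjusted p under 0.05 there were 2, Ogn at 0.84 ± 0.23 and Foxc1 at 0.40 ± 0.16, both with an adjusted p of 0.998, against 3.79% of all genes. DESeq2 called 0. Without female control 1 the median was 0.18, with Col1a1 at -0.03. Without female control 2 it was 1.17.

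In dual libraries against controls, 3 genes were higher (Ogn, Foxc1 and Aldh1a2) and 7 lower, with a median log2 fold change of -0.17. By edgeR 0 members passed, where 3.36% of all genes did (2.72% as higher), with 1 (Ogn) at an unadjusted p under 0.05 against 19.7% of all genes. DESeq2 also called 0. Ogn averaged 13.04 ± 3.83 CPM in dual and 10.01 ± 6.96 CPM in control libraries, at a log2 fold change of 0.68 ± 0.23 (adjusted p = 0.11). The direction for the collagen genes turned on which female control was kept. Without female control 1, Col1a1 (-0.70), Col1a2 (-0.78), Col3a1 (-0.73) and Lum (-0.61) stood lower in dual libraries. Without female control 2, Col1a1 (0.56), Col1a2 (0.46), Col3a1 (0.37), Ogn and Aldh1a2 (1.35) stood higher, with 1 library left as the female control. Within males, where neither enters, all 10 genes were lower in dual libraries, with a median of -0.43, and 0 passed by edgeR (0 at an unadjusted p under 0.05, and 0% of all genes called). Within females Ogn alone passed, as higher, where 15% of all genes did, and the median was 0.08. These 3 comparisons share their 4 control libraries.

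**Figure D3:**
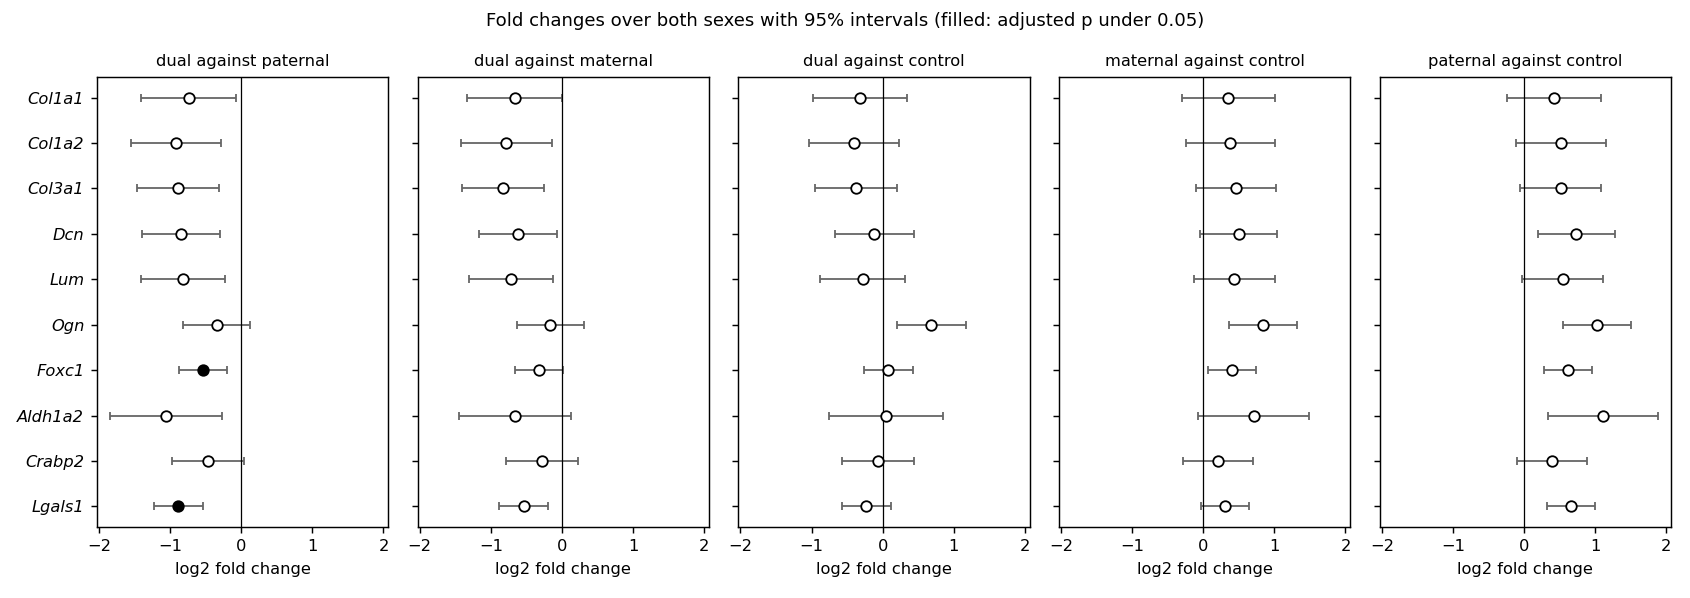
Log2 fold change of each gene in 5 comparisons of exposures over both sexes, with 95% intervals from edgeR, filled where the adjusted p is under 0.05. All 10 points lie under 0 in both left panels, with Foxc1 and Lgals1 filled against paternal exposure, and all 10 lie above 0 in the maternal and paternal comparisons with control.

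Departure from additivity was measured as the dual difference from control less the sum of the maternal and paternal differences. It was negative for all 10 genes, with a median of -1.23 on the log2 scale, against 0.00 for all genes. By edgeR 4 members passed as lower: Lgals1 at -1.20 ± 0.23 (adjusted p = 0.0075), Foxc1 at -0.93 ± 0.23 (adjusted p = 0.0271), Ogn at -1.19 ± 0.32 (adjusted p = 0.0417) and Dcn at -1.35 ± 0.37 (adjusted p = 0.0460). Of all genes, 4.21% passed in either direction and 0.724% as lower. DESeq2 called Lgals1, Foxc1 and Lum, of 1017 genes in all, and neither Ogn nor Dcn (adjusted p = 0.0818 and 0.116). A high value of the controls makes this quantity less negative and a low one more so. Without female control 1 the median was -0.95, and without female control 2 it was -1.94. Without the 2 female dual libraries, in males alone, 0 passed, with Lgals1 at -1.05. Lgals1 passed in all 16 fits that leave out 1 library.

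Averaged over the exposures, all 10 genes were higher in male than in female libraries, at log2 fold changes of 0.27 to 0.78. Lgals1 alone passed, at 0.60 ± 0.11 (adjusted p = 0.0144, edgeR), where 0.877% of all genes passed, 0.404% as higher and 0.473% as lower. It was higher in every male group than in the female group of the same exposure, and it passed in 13 of the 16 fits that leave out 1 library. Unadjusted p-values were under 0.05 for 9 members, all but Crabp2, against 11.4% of all genes. The direction did not hold for every gene within every exposure. In paternal libraries Col1a1 (118 CPM in females, 114 CPM in males), Col1a2, Col3a1, Lum, Ogn and Crabp2 averaged higher in females. There Dcn, Foxc1, Aldh1a2 and Lgals1 averaged higher in males. The female average includes female control 1 and the female dual libraries, which were low for most members. Each male library was shallower than each female one, so that sex and depth cannot be told apart.

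With all 16 libraries, Ogn was the member whose difference between dual and control libraries passed the test of a sex difference. Its dual effect was 1.69 ± 0.33 in females (adjusted p = 0.0028, edgeR) and -0.33 ± 0.32 in males (adjusted p = 0.943). The male minus female difference was -2.02 ± 0.46 (adjusted p = 0.0258, edgeR), where 3.5% of all genes passed, 0.733% as higher and 2.76% as lower. Ogn averaged 13.3 CPM in female and 12.8 CPM in male dual libraries, against 4.09 CPM in female and 15.9 CPM in male controls. The sexes thus differed in the control libraries and little in the dual ones. The other 9 members did not pass, and Ogn alone had an unadjusted p under 0.05, against 20.4% of all genes. The difference passed in 12 of the 16 fits that leave out 1 library and not in a fit on dual and control libraries alone (adjusted p = 0.093). Without female control 1 it was -1.56, and without female control 2 it was -2.70. The sex differences of the paternal and maternal effects called 0 members by edgeR and by DESeq2, as did 0% of all genes by edgeR. Unadjusted p-values were under 0.05 for 4 members in the paternal and 1 in the maternal comparison, against 10.8% and 9.86% of all genes, with Ogn at -2.10 ± 0.45 for paternal exposure (adjusted p = 0.295).

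Relative to Dcn, Ogn stood apart in the female dual libraries. The RPKM ratio of Ogn to Dcn was 2.21 and 2.95 there, against 0.840 to 1.75 in the other 14 libraries. Ogn lies beside Omd, Aspn and Ecm2, which code for further proteoglycans of the family, and all 4 lie inside the gene Cenpp on its opposite strand. Whether the counting used strand is not given, and overlap was looked up for whole genes and not for exons. Reads of Cenpp and of these genes may hence not be told apart where exons overlap, which was not tested. The same holds for Aldh1a2 and the antisense pseudogene Gm48124, while Col1a2 overlaps Gm43921 and Col3a1 overlaps Gm47302 on their own strand. Omd (osteomodulin), a gene of few reads here (at most 46 in a library), had 0.768, 0.766, 1.497 and 1.497 CPM in dual libraries. In control libraries it had 0.428, 0.633, 0.151 and 0.0579 CPM. Every dual library was higher than every control library, as was so for 3.07% of all genes. Omd was higher in dual libraries by a log2 fold change of 2.16 ± 0.45 (adjusted p = 0.0137, edgeR). It was higher by 3.79 ± 0.64 in females (adjusted p = 0.0011), and stood at 0.54 ± 0.62 in males (adjusted p = 0.945). Over all genes 2.72% passed as higher in dual against control over both sexes, and 9.34% in females. The female share also applies to the female values of the neighbouring genes below. Over both sexes Omd stood at 2.56 without female control 1 and 1.90 without female control 2. In males, with the female dual libraries left out, it stood at 0.54 (adjusted p = 0.957, edgeR). Against the same controls Omd stood at 1.22 ± 0.47 in maternal and 1.71 ± 0.45 in paternal libraries, neither passing (adjusted p = 0.998 and 0.396). Aspn (asporin) did not pass over both sexes, at 0.52 ± 0.32 (adjusted p = 0.389). It passed in females at 1.38 ± 0.43 (adjusted p = 0.0383), but not with female control 1 left out (1.16, adjusted p = 0.185) or female control 2 left out (1.64, adjusted p = 0.0614), and stood at -0.33 ± 0.47 in males. Ecm2 did not pass in females, at 0.58 ± 0.31. Cenpp, a centromere protein gene, changed by 0.11 ± 0.25 in females and did not pass. Aspn, Ecm2 and Cenpp were chosen after their values were seen. The higher share of TEC and sense-intronic reads in the female dual libraries, given above, moves with these results, and its part in them was not tested.

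**Figure D4:**
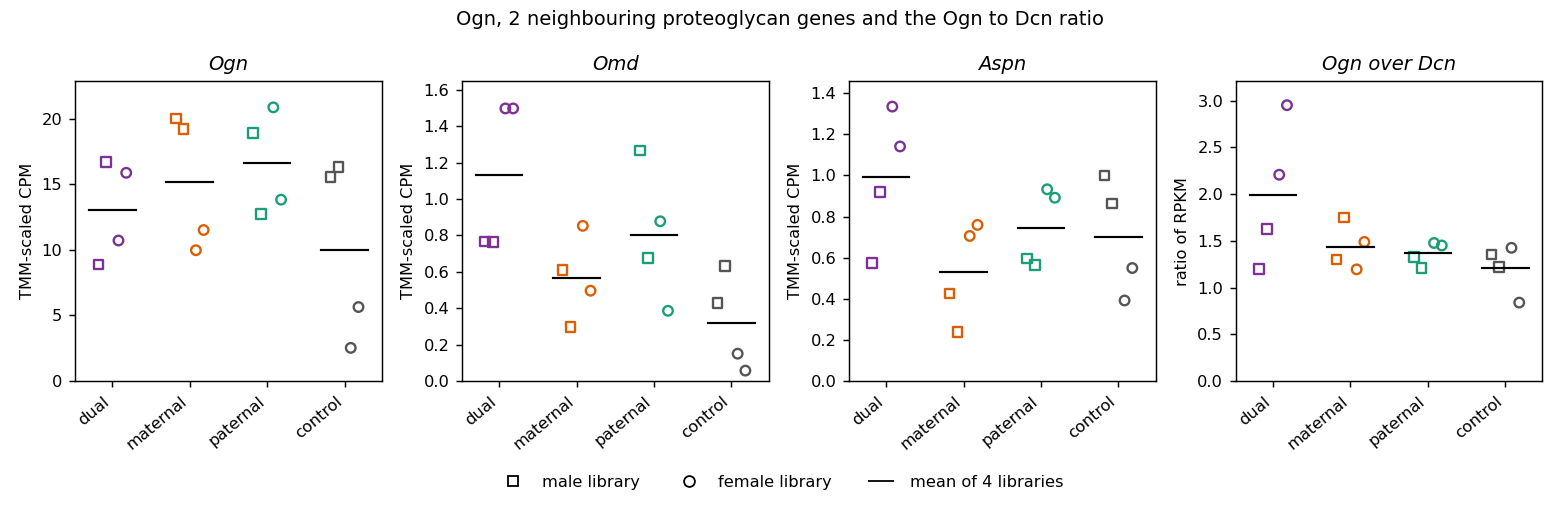
TMM-scaled CPM of Ogn, Omd and Aspn, and the ratio of Ogn to Dcn in RPKM, in every library by exposure, with squares for male and circles for female libraries and bars at the mean of 4. The 2 female dual libraries have the highest Omd and Aspn levels and the highest ratios, 2.21 and 2.95.

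Against control, other meningeal genes had medians close to those of the 10 members. Of 24 further meningeal genes, all tested, 0 passed against control for any exposure by edgeR, and their median log2 fold change was -0.07 for dual, 0.38 for maternal and 0.52 for paternal exposure. At an unadjusted p under 0.05 there were 1, 4 and 9 of them in those comparisons, against 19.7%, 3.79% and 8.45% of all genes. The tight junction gene Cldn11 of the arachnoid barrier stood at 1.17 ± 0.37 for paternal exposure and Foxc2, a close relative of Foxc1, at 1.10 ± 0.38, and the growth factor gene Igf2 at 0.64 ± 0.23 (adjusted p = 0.441, 0.482 and 0.512, edgeR). Against paternal exposure, where 2.16% of all genes passed as lower, dual libraries had a median of -0.56 over the 24. The median of the members was further from 0 there, at -0.84. Of the 24 genes, 2 passed as lower. These were Cxcl12, the chemokine that meninges use to guide migrating neurons (-0.57 ± 0.15, adjusted p = 0.029), and Lama1, a laminin of the pial basement membrane (-0.53 ± 0.16, adjusted p = 0.0495).

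Genes that build and process collagen had smaller medians in the same comparison. Over all genes 2.16% passed as lower there, and 24.6% had an unadjusted p under 0.05. Of 14 further fibroblast collagen genes, Col5a1 (-0.63 ± 0.18) and Col5a2 (-0.36 ± 0.09), which code for the type V collagen that nucleates fibrils, passed as lower in dual than in paternal libraries, with a median of -0.36 over the list (-0.23 over the collagen-processing genes). Of 23 collagen-processing genes 3 passed as lower there: Sparc, a collagen chaperone of the matrix (-0.55 ± 0.10), P4hb, a subunit of prolyl hydroxylase (-0.26 ± 0.05), and Fkbp10 (-0.59 ± 0.16), a folding enzyme of procollagen. Of 13 further leucine-rich proteoglycan genes 11 were tested, and Bgn (biglycan) was lower (-0.45 ± 0.13). Of 26 genes of fibroblast matrix and identity 22 were tested, and Fbln1 was lower (-0.31 ± 0.09). Of 17 further retinoic acid genes 15 were tested and 0 passed by edgeR in this comparison (4 at an unadjusted p under 0.05), and of 9 further galectin genes 8 were tested and 0 passed (0 at an unadjusted p under 0.05). The genes named as lower were chosen after their values were seen.

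Markers of other cell types at the brain surface and in vessels differed between the same libraries. In female control 1, 8 genes of border macrophages, which live in the meninges, summed to 28.6 CPM, against 52.1 to 146 CPM in the other 15 libraries, and 12 endothelial genes to 212 CPM, against 217 to 343 CPM. Pericyte genes (245 CPM, against 225 to 358 CPM), microglial genes (55.3 CPM, against 38.4 to 70.9 CPM) and erythroid genes (542 CPM, against 369.9 to 1194 CPM) lay inside the range of the other 15 libraries. Genes of cortical excitatory neurons summed to 3400 CPM there, against 2834 to 3397 CPM in the other 15 libraries. In dual against paternal libraries the border macrophage genes Mrc1 (-1.17 ± 0.27), F13a1 (-1.15 ± 0.30) and Stab1 (-0.91 ± 0.15) were lower, as were 5 of 12 endothelial genes, among them Pecam1 (-0.51 ± 0.09), 3 of 11 pericyte genes, 2 of 10 microglial genes and 3 of 9 erythroid genes measured. Of 10 genes of cortical excitatory neurons Slc17a7, a vesicular glutamate transporter, was lower (-0.34 ± 0.08). Over all genes 2.16% passed as lower in that comparison. In dual against control libraries Pecam1 (-0.40), Tie1 (-0.50) and Slc17a7 (-0.44) passed as lower, where 0.641% of all genes did. Endothelial genes summed to 217 to 274 CPM in dual and 309 to 336 CPM in paternal libraries, without overlap, and border macrophage genes to 52.1 to 71.0 CPM in dual and 108 to 146 CPM in paternal libraries. Choroid plexus genes summed to 187 CPM in female dual 2 and 8.39 CPM in female control 1, both low in meningeal genes. Lists of bone and cartilage, skeletal muscle, skin, glial neural crest, thalamus and radial glia had 0 genes called in dual against paternal libraries by edgeR. At an unadjusted p under 0.05 they had 1, 2, 0, 0, 0 and 2 genes, against 24.6% of all genes. The part of vessel, macrophage and blood content in the members' differences was not tested.

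**Figure D5:**
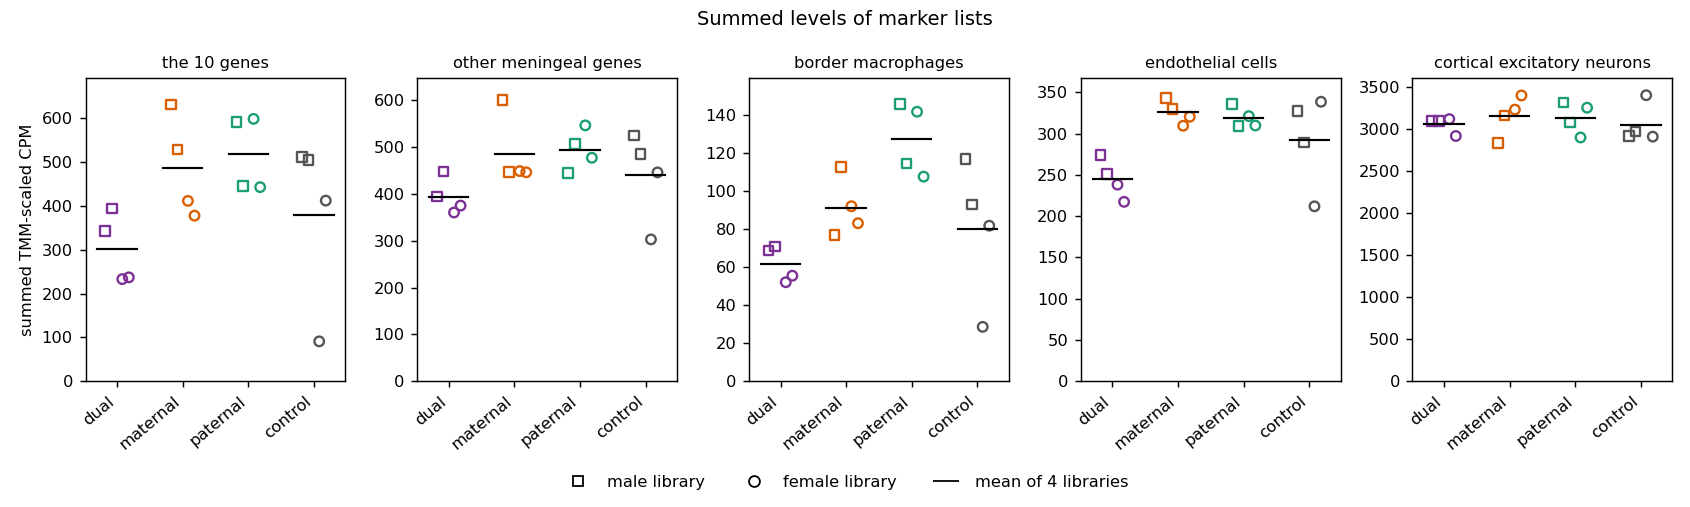
Summed TMM-scaled CPM of the 10 genes and of 4 marker lists in every library by exposure (axes from 0), with squares for male and circles for female libraries and bars at the mean of 4. Dual libraries lie under paternal ones without overlap for the 10 genes, border macrophages and endothelial cells, while genes of cortical excitatory neurons span 2834 to 3400 CPM.

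The genes most like the set were sought among 13739 genes with a mean log2 CPM over 1, by the mean absolute difference of centred log2 CPM from the members' mean over the 16 libraries. Among the 10 nearest were Colec12, Adamts12, Slc22a6, Gpc3, Svep1, Postn, Slc6a13, Lepr and Col6a2, at differences of 0.0873 to 0.144, against a median of 0.458 over all genes compared. The members were not chosen by this distance. Measured from the mean of the other members only, their differences ran from 0.143 (Dcn) to 0.354 (Crabp2). Genes chosen for nearness to the members' mean share its low value in female control 1 by the rule, so the values below are no separate evidence. Colec12, a scavenger receptor of the collectin family, had 5.97 CPM in female control 1 and 15.3 to 41.1 CPM in the other 15 libraries. Slc22a6 and Slc6a13, transporters of the arachnoid barrier, had 2.84 and 2.17 CPM in female control 1, against at least 7.20 and 9.20 CPM elsewhere.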

How the data were processed

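Total RNA of fetal mouse cortex was sequenced in 16 libraries, 2 per sex and exposure. The authors deposited raw read counts per gene. Trimmomatic, STAR and featureCounts are named, with the build GRCm39 (mm39), per the submitters' processing notes. Tool versions, annotation release and strand setting are not stated there. Depth was 15336566 to 35218456 counts per library, and no per-sample column was left unused (0 columns). Symbols were matched for 52083 of 55359 gene IDs through a table of gene names. GENCODE M21 (GRCm38) served for exon lengths, overlaps and gene classes, from which the TEC and sense-intronic shares were taken.

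From the counts, genes were filtered with filterByExpr (minimum count 10, minimum total 15), scaled by TMM and put through the quasi-likelihood test of edgeR 4.0.16 (R 4.3.3) with 8 group means (residual degrees of freedom 8, median prior 8.81). Exposure effects are means of the male and female effects. P-values were adjusted by Benjamini-Hochberg over all 21543 genes, with a threshold of 0.05, and CPM on the log2 scale used a prior count of 2. DESeq2 1.42.0 was an alternative, and limma 3.58.1 was loaded with edgeR. The code was tested on simulated data.

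The members and lists were chosen with earlier results of these data known. From each of 20 lists, up to 3 genes with the smallest p in each exposure against control could be named. Other names were chosen after their values were seen. Alternatives were another scaling, tool, filter and design, each library left out, and dual effects taken from males alone, added after seeing the data. Same-numbered replicates did not deviate together: over 28 pairs of groups r ran from -0.14 to 0.18, with 1 over 0.1, so the numbers were not taken to pair libraries. Of the 10 genes most like the members, 1 is not reported here.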

Additional observations from a re-analysis of the deposited data

Results flagged for a closer look

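Within an exposure, 4 single values stood far from the other 3 libraries of their group by Dixon's criterion, which chance meets in about 1 in 20 groups. These were Col3a1 in female control 1 (29.2 CPM), Lum in male dual 2 (6.28 CPM), Aldh1a2 in male maternal 1 (14.4 CPM) and Crabp2 in female paternal 1 (5.82 CPM). The test covered 40 groups of 4 libraries. For Ogn the dual effect differed between the sexes by -2.02 on the log2 scale, male less female, by edgeR's test of the difference itself. Its mean differed between the sexes in control libraries (15.9 CPM in males, 4.09 CPM in females) and little in dual ones (12.8 and 13.3 CPM).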

How the results depend on the processing

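Counts of called members depended on the fit, and the cause was not tested. Counts over all genes also changed from fit to fit. Where none is given beside a member count below, that count cannot be set against the share of all genes. Each sex and exposure had 2 libraries, so a fit without 1 of them keeps 1 library of that group. The spread of that group is then taken from the other groups, and calls from such fits carry this limit. The log2 medians for dual against maternal (-0.76 to -0.51) and dual against paternal libraries (-0.96 to -0.72) kept their direction whichever library was left out, as did those for maternal and paternal against control, while that for dual against control did not.

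Leaving out each library in turn gave 0 to 5 members called for dual against control, 0 to 8 for maternal against control, 0 to 9 for paternal against control, 0 to 8 for dual against maternal, 1 to 8 for dual against paternal and 1 to 9 for the departure from additivity. For the sex differences of the dual, maternal and paternal effects it gave 0 to 8 each (18 to 2854, 0 to 612 and 0 to 1052 of all genes). Over all genes it gave 142 to 2056 for dual, 0 to 115 for maternal and 0 to 672 for paternal against control, and 109 to 1003 for male against female. Medians ran from -0.42 to 0.42 for dual, 0.18 to 1.17 for maternal and 0.39 to 1.28 for paternal against control.

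For dual against control these log2 fold changes turned sign: Aldh1a2 (-0.39 to 1.35), Col1a1 (-0.70 to 0.56), Col1a2 (-0.78 to 0.46), Col3a1 (-0.73 to 0.37), Crabp2 (-0.53 to 0.22), Dcn (-0.45 to 0.51), Foxc1 (-0.14 to 0.38) and Lum (-0.61 to 0.35). So did Col1a1 for maternal against control (-0.033 to 1.23), and Crabp2 (-0.75 to 0.0092) and Ogn (-0.45 to 0.033) for dual against maternal.

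With no filter on low counts 8, 6 and 4 members passed for paternal, maternal and dual against control (321, 79 and 1345 of all genes), 8 and 7 for dual against paternal and maternal, 9 for additivity, 6, 3 and 2 for the paternal, maternal and dual sex differences, and 603 genes for male against female. For Dcn in additivity the log2 fold change stayed at -1.35 in that fit, while the adjusted p fell from 0.0460 to 3.7e-17 (edgeR). The cause was not tested, so its counts are not on a par with the rest. Its member counts between exposures, for additivity and for the sex differences are given without counts over all genes. They hence do not set the members apart from other genes. DESeq2 called 21 and 2 genes for paternal and maternal against control, 1 member for dual against maternal and 329 genes for male against female. Scaling by summed counts alone gave 4 and 2 members for dual against paternal and maternal, 1130 genes for male against female, and Aldh1a2 at -0.014 for dual against control. Fits on the compared groups only gave 8 and 8 members for dual against paternal and maternal, 0 for the dual sex difference and 335 genes for dual against control. An additive model of sex and exposure gave 183 genes for dual against control and 1 member for additivity. Without the female dual libraries 0 genes passed for dual against control, 0 members for dual against paternal and 0 for additivity, with Ogn at -0.32, Foxc1 at -0.25 and Aldh1a2 at -0.27 for dual against control. With a replicate block 1 member passed for dual against paternal, Foxc1 standing at an adjusted p of 0.0540 (edgeR).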
